A study of Mus musculus with 2 samples.

Results

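The genes described here encode inhibitors of leukocyte proteases: the stefin A genes Stfa1, Stfa2, Stfa2l1 and Stfa3, the Serpinb1 paralogues Serpinb1a, Serpinb1b and Serpinb1c, and Slpi. They were taken by symbol from the gene annotation of a NimbleGen mouse expression array. Of the 8 genes, 6 had sequences on the array, 7 sequences in all among the 44170 measured; Stfa1 and Stfa2 were not on it. The gene set was chosen with the differences between these arrays already known, so its values are a description.

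Long-term haematopoietic stem cells (LT-HSC), which sustain blood formation, were sorted by flow cytometry from femoral bone marrow of C57/BL6 mice, from WASH knockout animals and from wild type control animals. WASH activates the Arp2/3 actin nucleator on endosomes. Each genotype had 1 array, hybridised with Cy3-labelled total RNA. The labels give neither the age and number of the mice nor the allele or the cells in which WASH was removed. With no replicates there is no standard deviation, interval or p-value for any difference below, and the number of arrays limits the precision.

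Neutrophils store serine proteases, chiefly neutrophil elastase, cathepsin G and proteinase 3, in granules, and protect themselves with inhibitors. Serpinb1 proteins act inside the cell: the serpin is cleaved by the protease and traps it in a covalent complex. Slpi is a small secreted protein of the WAP family that blocks elastase and cathepsin G reversibly. Stefins are cytosolic inhibitors of another protease class, the papain-like cysteine cathepsins of lysosomes, and in the mouse the stefin A genes form a cluster of close copies.

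The Serpinb1 and Slpi signals were lower on the knockout array, while Stfa2l1, the stefin in the detected range, was slightly higher. In log2 units, knockout minus control, the differences were -2.35 for Serpinb1c, -2.06 for the brightest Serpinb1a sequence, -1.56 for Slpi and 0.40 for Stfa2l1. Stfa3 and Serpinb1b lay near or below background. By measured values of their brightest sequences, 4 of the 6 members on the array were at least 2-fold lower in the knockout, a size reached by 6.42% of all 24171 genes measured. Among the 4, Stfa3 had a knockout value below background and is bounded only at 1.79-fold, which leaves 3, all in the detected range. None of the 6 was at least 2-fold higher, against 5.94% of all genes. By measured values of single sequences, 5 of the 7, that of Stfa3 included, were at least 2-fold lower and 0 higher, sizes reached by 6.77% and 5.98% of all sequences. The median over the 6 members was -1.32, and over all genes 0.02; it was -1.20 for the members with values below background raised to it. These shares are read as background only, because the members were picked on this contrast.

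**Figure D1:**
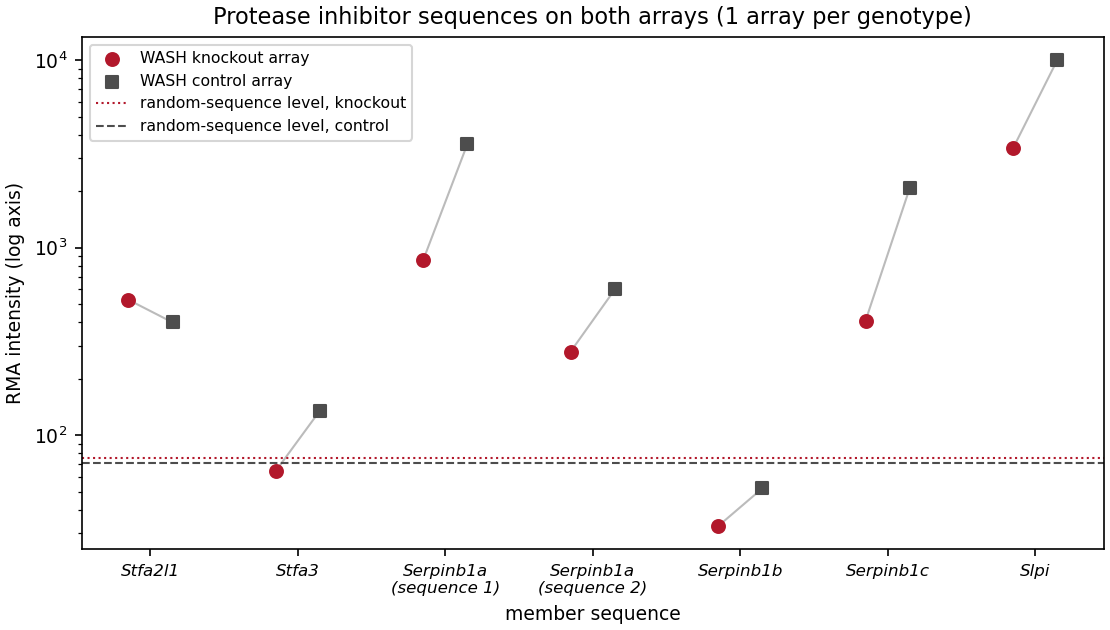
RMA intensity (log axis) of the 7 member sequences, with the knockout array as red circles, the control array as grey squares, and the level of random-sequence probes on each array as dotted and dashed lines. Slpi, Serpinb1c and both Serpinb1a sequences are lower in the knockout, Stfa2l1 is slightly higher, and Serpinb1b is under both lines.

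The arrays had median intensities of 137.5 in the knockout and 136.9 in the control, and probes of random sequence gave 75.7 and 71.3, used here as the background level. The detected range comprised the 16245 genes read above the array's own median in the knockout or the control. Washc1, the targeted gene, read 107 in the knockout and 119 in the control with its single sequence (log2 difference -0.15), but the position of its probes relative to the deletion was not examined, so this value does not check the labels. Of 13 LT-HSC markers, 8 were in the detected range, while Procr, Fgd5 and Tek were below background on both arrays. All 15 erythroid markers were in the detected range and 11 of them at least 2-fold higher in the knockout, against 6.41% of all genes in that range.

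Serpinb1c, a less studied paralogue of the elastase inhibitor gene, differed most among the members. It had an intensity of 408 in the knockout and 2088 in the control, 5.11-fold lower in the knockout, from 1 sequence (chromosome 13, 32973507 to 32988977, MM9). Its values were 5.40 and 29.3 times background, so neither array limits the comparison by dimness. A difference as low or lower was found in 31 genes of the detected range (0.191%).

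Serpinb1a, the main mouse counterpart of the human elastase inhibitor SERPINB1, had 2 sequences, and both were lower in the knockout. The brighter one (chromosome 13, 32933960 to 32990009) was at 859 in the knockout and 3582 in the control, 4.17-fold lower. The other (32934504 to 32989993) was at 279 in the knockout and 599 in the control, a log2 difference of -1.10. The sequences thus differed from each other by 0.96 in the size of the drop. For comparison, log2 differences of single sequences spread about the mean of their gene with an SD of 0.66. That SD is narrower than the spread of gaps between 2 sequences, the like measure for 0.96, which was not computed. It was taken over the 4969 detected genes that had more than 1 sequence. Every sequence was at least 2-fold lower in 1.19% of those genes. In the files' own coordinates the range of both Serpinb1a sequences covers the whole range of the Serpinb1c sequence. The paralogues are close copies and no probe sequences were used here, so their signals cannot be assigned to 1 gene with certainty.

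Serpinb1b, the third paralogue, was at 32.7 in the knockout and 52.0 in the control, 0.43 and 0.73 times background (chromosome 13, 33176037 to 33186181). Both values lie under the random-sequence level, so no fold is given. Between the outermost Serpinb1 sequences the array also held Serpinb6b, Serpinb9 and Serpinb9b. Serpinb9, the intracellular granzyme B inhibitor, was at 408 in the knockout and 235 in the control, a log2 difference of 0.80. Serpinb6b was below background on both arrays with each sequence. Of the 8 sequences in this stretch, the 3 of Serpinb1a and Serpinb1c were at least 2-fold lower, beside 6.77% of all sequences. Among the others, 3 were below background on both arrays. Serpinb9b read 1.13 times background in the knockout and 0.96 times in the control. Only Serpinb9 was therefore bright enough to show a drop, and it was higher.

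The promoters of the Serpinb1 paralogues are shown because one paralogue had signal and the other did not. RefSeq (GRCm38.p6) gave promoters for 7 of the 8 members, all but Serpinb1a. The 250 bases before the start are printed for Serpinb1b (chr13:33083853-33084102, plus strand) and for the start of Serpinb1c with the lower coordinate of the 2 listed (chr13:32898141-32898390, minus strand). Capitals mark the longest run that these promoters share, TGCAATCTTCTGCTTT, of 16 bases.
Serpinb1b: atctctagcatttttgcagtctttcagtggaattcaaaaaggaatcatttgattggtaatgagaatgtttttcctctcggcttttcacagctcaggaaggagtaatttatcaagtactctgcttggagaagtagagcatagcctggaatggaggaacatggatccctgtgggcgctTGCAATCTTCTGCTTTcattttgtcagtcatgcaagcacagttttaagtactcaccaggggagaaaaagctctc
Serpinb1c: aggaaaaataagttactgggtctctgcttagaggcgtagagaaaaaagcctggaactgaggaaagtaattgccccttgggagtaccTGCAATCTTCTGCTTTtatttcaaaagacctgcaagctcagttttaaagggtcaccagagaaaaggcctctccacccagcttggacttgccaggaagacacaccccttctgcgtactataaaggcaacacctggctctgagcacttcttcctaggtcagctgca
The run was picked from these sequences. On either strand it occurs in 2 of 32851 promoters (0.00609%). Aligned end to end, the promoters were identical at 46.7% of aligned positions, beside 50.3% between Serpinb1b and the unrelated Slpi promoter. The run begins 74 bases before the start of Serpinb1b and 164 before that of Serpinb1c. The 46.7% therefore does not measure how alike the bases around the run are.

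Slpi had an intensity of 3395 in the knockout and 10029 in the control, 2.95-fold lower in the knockout, from 1 sequence (chromosome 2, 164179805 to 164182243, MM9). It was among the top 2% of sequences on both arrays, at percentiles 98.6 and 99.5, and far above background (44.9 and 141 times). Of the 215 genes whose mean log2 value lay within 0.5 of that of Slpi, 18 (8.37%) were at least 2-fold lower. For Serpinb1a and Serpinb1c the share among genes of like level was 5.74% of 1149 genes and 5.37% of 2367 genes. The difference of Slpi lay closer to the bulk of genes than those of the serpins, with 1.83% of detected genes as low or lower.

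**Figure D2:**
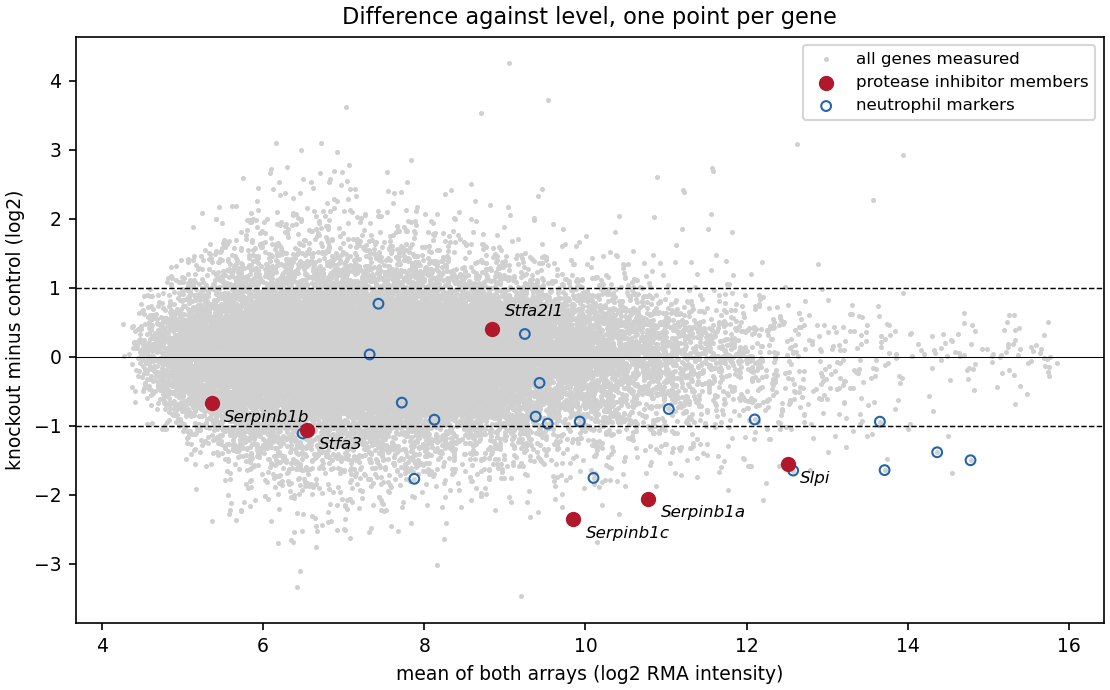
Log2 difference (knockout minus control) against the mean log2 RMA intensity of both arrays, with 1 point per gene by its brightest sequence and dashed lines at 2-fold. The members (red) Slpi, Serpinb1a and Serpinb1c lie under the lower line, at -1.56, -2.06 and -2.35, and neutrophil markers (blue circles) spread between -1.77 and 0.77.

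The Slpi promoter (chr2:164356508-164356757, minus strand, GRCm38.p6) is shown with matches to TTNNGNAA, a relaxed consensus of the C/EBP factors that drive granulocyte genes, in capitals on either strand.
Slpi: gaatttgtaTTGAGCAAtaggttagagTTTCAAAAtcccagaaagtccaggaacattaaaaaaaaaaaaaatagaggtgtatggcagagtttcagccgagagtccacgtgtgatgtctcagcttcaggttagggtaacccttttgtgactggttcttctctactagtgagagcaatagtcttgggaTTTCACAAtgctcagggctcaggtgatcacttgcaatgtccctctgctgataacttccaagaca
It holds 3 matches, and 36.8% of all 32851 promoters hold at least 1, so the matches are a description of the sequence only. The printed Serpinb1c promoter holds 1 match and that of Serpinb1b 0.

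Among the stefins, Stfa2l1 was at 528 in the knockout and 400 in the control, a log2 difference of 0.40 (chromosome 16, 36156898 to 36162014, MM9). Of the genes in the detected range, 72.6% had a difference as low or lower, which places it within the bulk. Stfa3 was at 64.3 in the knockout and 135 in the control (chromosome 16, 36450628 to 36455472). The knockout value is below background and the control value just below that array's median, so Stfa3 was at least 1.79-fold lower and outside the detected range. It is counted at 2-fold above by its measured values only. The measured values of these stefins differed in opposite directions, that of Stfa2l1 by little, and neither had a second sequence to set beside it.

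Other genes of the stefin cluster lay between them on chromosome 16. Cstdc6, a cystatin domain gene, had 2 sequences that disagreed. One was at 1888 in the knockout and 1327 in the control (0.51), and the other at 374 and 830 (-1.15). Cstdc5 was at 493 in the knockout and 663 in the control (-0.43). Csta2, Csta3 and Cstdc3 were below background on both arrays. Of the 8 sequences of the cluster, 1 of Cstdc6 was at least 2-fold lower, that of Stfa3 is bounded at 1.79-fold, and none was 2-fold higher, beside 6.77% and 5.98% of all sequences at 2-fold. Close copies in this cluster may share probe signal.

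The promoters of Stfa2l1 (chr16:36156561-36156810, plus strand) and Stfa3 (chr16:36455393-36455642, minus strand), both GRCm38.p6, are printed because their upstream sequences are alike. The measured differences of these genes had opposite signs, without replicates to show whether the genes differ. Capitals mark the 3 runs of at least 12 bases that the promoters of all 4 stefin members share: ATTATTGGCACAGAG, ACTCAGCATTTCC and, nearest the start, ACCTTTAAAACCC. The runs were picked from these sequences.
Stfa2l1: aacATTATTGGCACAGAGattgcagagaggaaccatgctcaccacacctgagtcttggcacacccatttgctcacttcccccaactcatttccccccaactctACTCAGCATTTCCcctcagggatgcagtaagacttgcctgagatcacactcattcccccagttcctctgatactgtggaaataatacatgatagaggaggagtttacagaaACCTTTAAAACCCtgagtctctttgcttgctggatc
Stfa3: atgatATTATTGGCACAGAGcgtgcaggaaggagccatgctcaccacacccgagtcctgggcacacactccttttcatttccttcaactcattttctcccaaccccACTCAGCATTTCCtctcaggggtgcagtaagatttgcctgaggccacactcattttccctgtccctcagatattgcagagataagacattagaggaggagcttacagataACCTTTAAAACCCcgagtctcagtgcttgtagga
These stretches were identical at 80.5% of aligned positions. ACCTTTAAAACCC begins 36 bases before the start of Stfa2l1 and 34 before that of Stfa3. On either strand it was found in 8 of all 32851 promoters (0.0244%), 7 of them of stefin cluster genes, among the 10 such genes with a promoter. The other was that of Gm7260, which was not among the stefin genes searched and whose relation to them was not examined. The Cstdc5 stretch ends with all but the last base of this run and was not counted, so the count depends on where the 250 bases end. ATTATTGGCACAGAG was in 5 promoters (0.0152%), those of the 4 stefin members and of Cstdc5. ACTCAGCATTTCC was in 9 (0.0274%), 8 of them of the cluster and the other again that of Gm7260. The promoters of Stfa2 and Stfa2l1 were the closer pair, at 89.4%, but Stfa2 had no sequence on the array.

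Most neutrophil markers were lower on the same array. Of 19 markers, all were measured, none was below background on both arrays, and 16 were lower in the knockout. The detected ones numbered 18, of which 6 were at least 2-fold lower and 0 higher, against 7.29% and 6.41% of all genes in the detected range. The summed level of the 19 markers was 59437 in the knockout and 150862 in the control, a log2 ratio of -1.34. For the 6 members the sums were 5288 and 16285, a log2 ratio of -1.62. Such sums weigh the brightest genes most. By gene, the median was -0.94 for the 19 markers and -1.32 for the 6 members (-1.20 with values below background raised to it). Lactoferrin (Ltf), a secondary granule protein, read 9296 in the knockout and 17887 in the control (-0.94). S100a8 and S100a9, the calprotectin subunits, differed by -1.50 and -1.39, and the granule gene Ngp by -1.65. By brightest sequences, the markers higher in the knockout were Itgam (0.77), Retnlg (0.33) and Cebpe (0.03). Further sequences were lower for Itgam (-0.27 and -1.73) and for Retnlg (-1.49). Serpinb1c and the brightest Serpinb1a sequence had lower differences than any of the 19 markers, whose lowest was Fcnb at -1.77, while that of Slpi lay inside their range. The cells were sorted as LT-HSC, but neither the gate nor the purity of the sort was examined here. In these bulk samples fewer cells of a type and less RNA per cell cannot be told apart, and the part of neutrophil signal in the lower inhibitor values was not tested.

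Of the serine proteases that these inhibitors act on, only Ctsg was in the detected range, and it differed less than Serpinb1a, Serpinb1c and Slpi. Ctsg, the cathepsin G gene, was at 1734 in the knockout and 1959 in the control (-0.18). Elane, the elastase gene, was at 88.1 in the knockout and 131 in the control (-0.57), and Prtn3, the proteinase 3 gene, at 108 and 128 (-0.24), neither of them in the detected range. In the knockout and the control, Elane read 1.16 and 1.84 times background and Prtn3 1.43 and 1.80 times. The size of their differences is therefore uncertain. The median of the 3 proteases, -0.24, is the value of the dim Prtn3, and stands beside -1.32 for the members. The member median lies midway between Slpi and Stfa3, whose knockout value was below background. It was -1.20 with such values raised to background. Prss57 was not on the array.

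The cysteine cathepsins, which stefins inhibit, differed in both directions by their brightest sequences. Of 11 genes with legumain, 9 were in the detected range, 6 of them lower and 3 higher in the knockout, and the median was -0.15. At least 2-fold lower was 1 of the 9, beside 7.29% of all genes in the detected range. With the dimmest sequence of each gene the median was -0.92 and 3 of 7 detected genes were at least 2-fold lower. In that setting 996 of all 10949 detected genes were. Ctsc, which activates neutrophil serine proteases, was at 666 in the knockout and 1443 in the control (-1.11), and its other sequence was lower by -1.82. Ctss was lower with both sequences, by -0.51 and -1.86, while Ctsh differed by 0.29 with 1 sequence and was at least 2.72-fold lower with the other, whose knockout value was below background. Ctsb was at 761 in the knockout and 520 in the control (0.55).

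**Figure D3:**
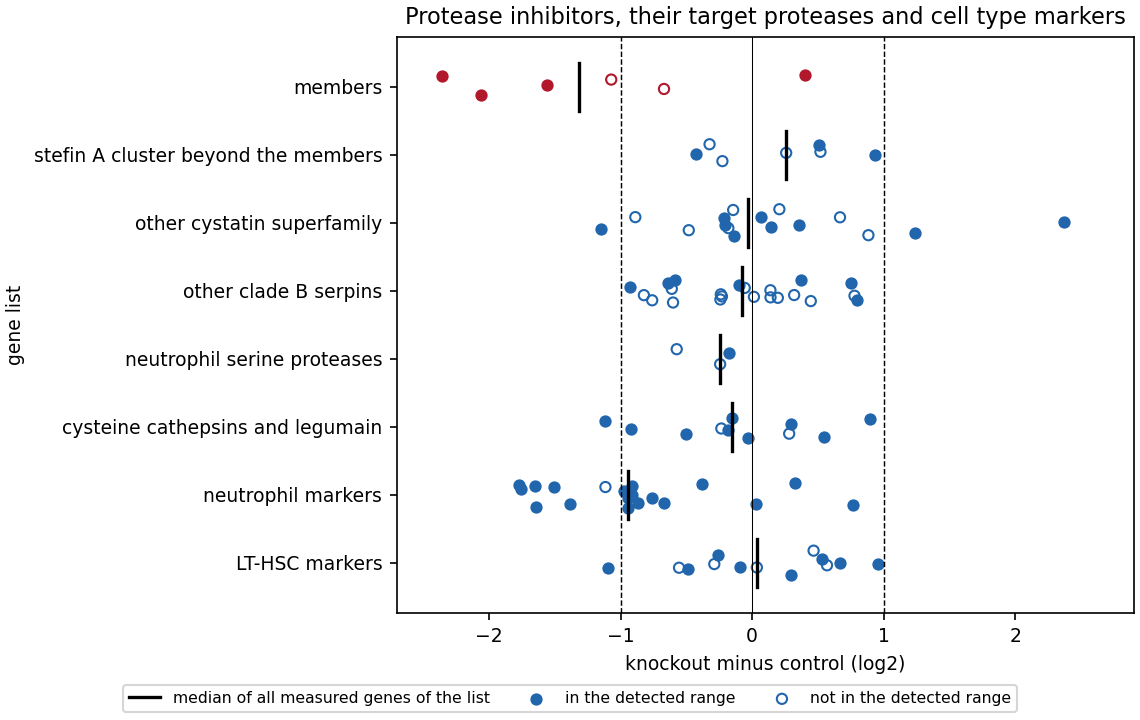
Log2 difference (knockout minus control) of each gene by its brightest sequence, in the members (red) and in lists of other inhibitors, target proteases and markers (blue), with open circles for genes outside the detected range and a black bar at the median of the measured genes. The medians are -1.32 for the members, -0.24 for the neutrophil serine proteases, -0.94 for the neutrophil markers and 0.04 for the LT-HSC markers.

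Of 22 other clade B serpins measured, 7 were in the detected range and 11 were below background on both arrays, where a difference could not show. None of the 22 was at least 2-fold lower or higher, sizes reached by 6.42% and 5.94% of all genes measured. Their median was -0.08. Serpinb3b was at 451 in the knockout and 349 in the control (0.37) and Serpinb6c at 327 and 350 (-0.10). Of 16 other genes of the cystatin superfamily, 9 were in the detected range, 1 was at least 2-fold lower and 2 were higher, and the median of the 16 was -0.03. Cst3, the secreted cystatin C gene, was at 540 in the knockout and 1195 in the control (-1.15). Cstb, the stefin B gene and the nearest relative of stefin A outside the cluster, was at 2237 in the knockout and 1747 in the control (0.36). The plasma protein genes Hrg and Fetub were higher, Hrg by at least 2.81-fold over a control value below background and Fetub by 1.23 on the log2 scale. The Fetub control value was 1.14 times background.

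**Figure D4:**
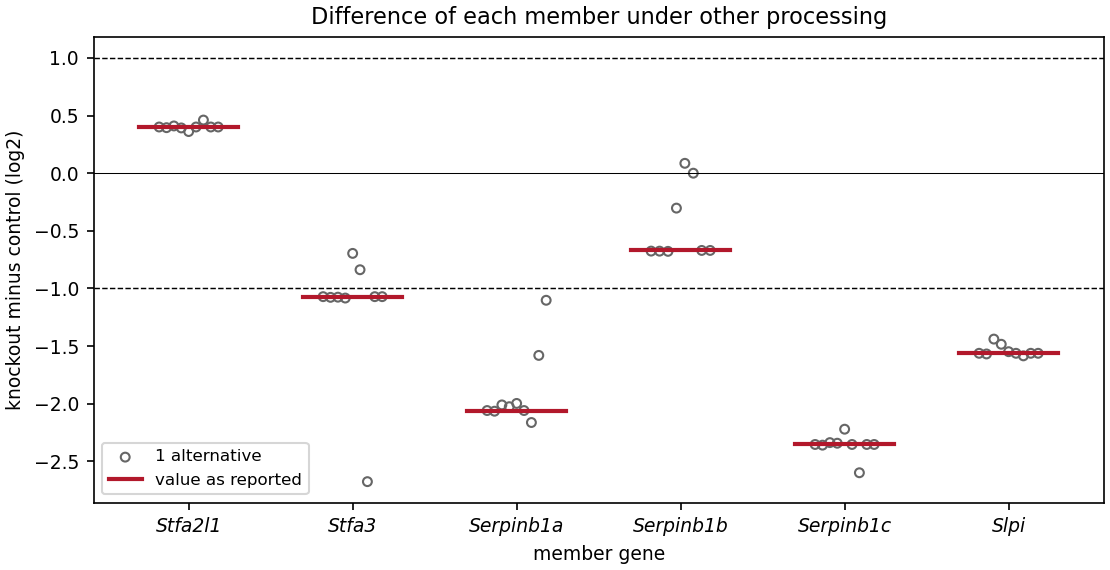
Log2 difference (knockout minus control) of each measured member as reported (red bar) and under each of the other processing settings (open circles), with dashed lines at 2-fold. Slpi, Serpinb1a and Serpinb1c stay under the lower line in all 9 settings, Stfa2l1 stays between 0.36 and 0.46, and the dim Stfa3 ranges from -2.68 to -0.70. For members with 1 sequence, the mean and the dimmest sequence repeat the reported value.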

How the data were processed

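Each array file held 1 linear intensity per sequence, which the authors made with RMA, per the submitters' processing notes; RMA in general corrects background, normalizes between arrays and summarises over probes, and neither its version nor its settings are named in the sources used. Of 44170 sequences, 44155 were summarised from 3 probes, and coordinates were on MM9, per the file headers. The authors' series table held the intensities of the 34218 sequences at 50 or more on both arrays, equal to those of the array files within 0.0412 intensity units.

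No further scaling was applied before log2 values were subtracted, knockout minus control. Symbols were updated through the RefSeq gene table (21583 identifiers matched, 41886 sequences with a symbol). A gene was represented by its sequence of highest mean log2 value. Genes were counted at 2-fold in place of a test. A value below the random-sequence level gives a bound ("at least"). The counting was checked on simulated arrays with large planted differences and little noise. That check covers the code only, not how reliable a 2-fold difference is on these arrays.

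Members and lists were chosen with earlier results of these data known. Named were all members; in inhibitor and protease lists, up to 4 detected genes at 2-fold or more, otherwise the 2 brightest; and the 4 brightest neutrophil markers. Other genes were chosen after their values were seen. The list of other stefin cluster genes as written also held Cstdc1 and Cstdc2, which lie on chromosome 2, and had 7 measured genes with a median of 0.26. The mast cell and basophil list (8 measured) had a median of -0.21 and the monocyte and macrophage list (10 measured) of 0.35. Python 3.11.15, pandas 2.3.3, statsmodels 0.14.6 and Biopython 1.88 (global alignment) were used.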

Additional observations from a re-analysis of the deposited data

How the results depend on the processing

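No paired analysis was possible because there was a single array for either genotype, and for the same reason no replicate could be left out. Under 9 other settings (the series table, centring, quantile normalization, loess with span 0.3, an offset of 50, a floor at background, background subtracted, and, per gene, the mean of its sequences or its dimmest one), Slpi ranged from -1.58 to -1.44, Serpinb1c from -2.60 to -2.22, Serpinb1a from -2.16 to -1.10 (the dimmer sequence) and Stfa2l1 from 0.36 to 0.46. Stfa3 was -2.68 with background subtracted and missed 2-fold with the offset (-0.70) and the floor (-0.84). Serpinb1b was 0.09 with the floor and 0.00 with background subtracted, where both of its values were set by the background. For members with 1 sequence the mean and the dimmest sequence repeat the reported value, and the series table holds the same intensities where it includes them. Those settings could therefore not move such members. The median of the members ranged from -1.87 to -1.09. At 3-fold, 2 members were lower. For all genes in the detected range, 1185 were 2-fold lower in the knockout and 1042 higher. Those counts were 735 and 573 with the offset, 2395 and 2122 with background subtracted, 676 and 538 above the 75th percentile, 2972 and 3004 at 1.5-fold and 280 and 242 at 3-fold; with the mean of the sequences 677 were higher. The median of the detected genes among the other stefin cluster genes, 0.51, was -0.32 with the mean and -0.43 with the dimmest sequence, since the sequences of Cstdc6 disagree. That of the other clade B serpins, -0.10, was 0.56 with the series table, which held 4 of them. That of the cysteine cathepsins, -0.15, was -0.54 with the mean and -0.92 with the dimmest sequence, with 2 of 8 and 3 of 7 genes at least 2-fold lower. Over all detected genes these counts were 803 of 13905 and 996 of 10949.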

Other observations

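Other inhibitor families were described beside the members. Of 22 clade A serpins, secreted inhibitors that include the liver antitrypsin genes, 15 were in the detected range, with a median of 0.02. Of these, 1 was at least 2-fold lower in the knockout and 2 were higher, beside 7.29% and 6.41% of all genes in that range. Serpina1a, an antitrypsin gene, was at 358 in the knockout and 138 in the control (1.38), and its other sequence was below background on both arrays. Serpina3k was at 208 in the knockout and 509 in the control (-1.29), and its other sequence was again below background on both. Serpina6, the corticosteroid-binding globulin gene, was at 158 in the knockout and 76.2 in the control (1.05), the control value being 1.07 times background. Serpina3g, an intracellular cathepsin inhibitor of leukocytes, was at 398 in the knockout and 214 in the control (0.89), and its other sequence was at least 2.78-fold higher over a control value below background.

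Of 18 other WAP domain genes, relatives of Slpi, 12 were in the detected range, with a median of 0.12 over the 12. At least 2-fold lower was 1 of the 12, beside 7.29% of all genes in that range. Wfdc15a was at 78.5 in the knockout, 1.04 times background, and at 348 in the control (-2.15). Wfdc18 was at 988 in the knockout and 598 in the control (0.73).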
